A study of Mus musculus with 9 samples.

Results

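The genes described here belong to the families of enzymes that join glutathione, glucuronic acid or sulfate to small molecules. They were taken by name from the 23607 genes counted in each mouse, as every symbol of the glutathione S-transferases (Gsta, Gstm, Gstp, Gstt, Gsto, Gstz, Gstk and the microsomal Mgst), the UDP-glucuronosyltransferases (Ugt) and the sulfotransferases (Sult). This gave 63 genes, of which 24 belong to the glutathione enzymes, 21 to the glucuronide enzymes and 18 to the sulfate enzymes. The families follow the symbols, so Ugt8a, which transfers galactose, is counted among the glucuronide enzymes. No measured value entered this rule of names, though earlier results of these data were known when it was chosen.

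The data are RNAseq counts from the pS6-IP of the olfactory epithelium (OE) of 9 C57BL/6 mice. In this assay an antibody against phosphorylated ribosomal protein S6 recovers ribosomes together with their mRNAs, and S6 is phosphorylated in olfactory sensory neurons (OSNs) that have been active. For 1 hr, 3 mice were exposed to distilled water (controls), 3 to 1% heptanal and 3 to 100% heptanal, an odorant aldehyde with a fatty smell. Each group has 1 mouse of postnatal day 22 (P22), 1 of P21 and 1 of P18, and the methods describe the mice of 1 replication as littermates of the same sex. Postnatal day, litter, sex and the handling of the libraries therefore cannot be told apart, and all 9 mice are of 1 strain. The OE was taken whole, and all 9 libraries are from the pS6-IP. Fewer cells of a type, less RNA per cell and weaker capture through phosphorylated S6 therefore cannot be told apart in any of the values that follow.

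Conjugating enzymes make lipophilic molecules more soluble in water, which helps cells to export them. Glutathione S-transferases attach the tripeptide glutathione to electrophiles such as reactive aldehydes, UDP-glucuronosyltransferases transfer glucuronic acid from UDP-glucuronate, and sulfotransferases transfer sulfate from the donor PAPS. In the OE, such enzymes are known mainly from the sustentacular cells that surround the neurons and from the Bowman glands, where they act on inhaled chemicals and odorants.

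Which of these genes can be measured separately depends on their sequence. As a rule, the Ugt1a genes each splice an exon of their own to the same following exons, and so do Ugt2a1 and Ugt2a2. The following lines show the join in 5 of the models, read from the GRCm38 (mm10) genome and its GENCODE annotation, to show how abruptly the sequence common to all models begins. The last 24 bases before the join are in lower case and the first 24 bases of the exons common to the locus are in capitals, 5′ to 3′.
Ugt1a1, plus strand, part before the join ending at base 88212871 of chromosome 1 and common part starting at 88215044: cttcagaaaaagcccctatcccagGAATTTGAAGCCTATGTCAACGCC
Ugt1a6a, plus strand, part before the join ending at base 88139331 of chromosome 1: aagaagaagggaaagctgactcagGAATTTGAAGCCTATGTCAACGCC
Ugt1a9, plus strand, part before the join ending at base 88071678 of chromosome 1: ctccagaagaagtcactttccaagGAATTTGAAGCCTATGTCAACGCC
Ugt2a1, minus strand, part before the join ending at base 87486029 of chromosome 5 and common part starting at 87465556: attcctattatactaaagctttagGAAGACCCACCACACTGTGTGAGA
Ugt2a2, minus strand, part before the join ending at base 87474390 of chromosome 5: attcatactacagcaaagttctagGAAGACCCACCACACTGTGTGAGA
The stretch before the join is not always particular to 1 model, since the 8 Ugt1a models have 7 distinct ends there. Ugt1a6a and Ugt1a7c share the exon shown, and Ugt1a6b has the same last 24 bases at another place. After the join, 1311 bases are identical in all 8 Ugt1a models and 1771 bases are identical in Ugt2a1 and Ugt2a2. Exon bases shared with at least 1 other model make up 50.3% to 60.6% of those of a Ugt1a model and 68.9% of those of Ugt2a1.

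**Figure D1:**
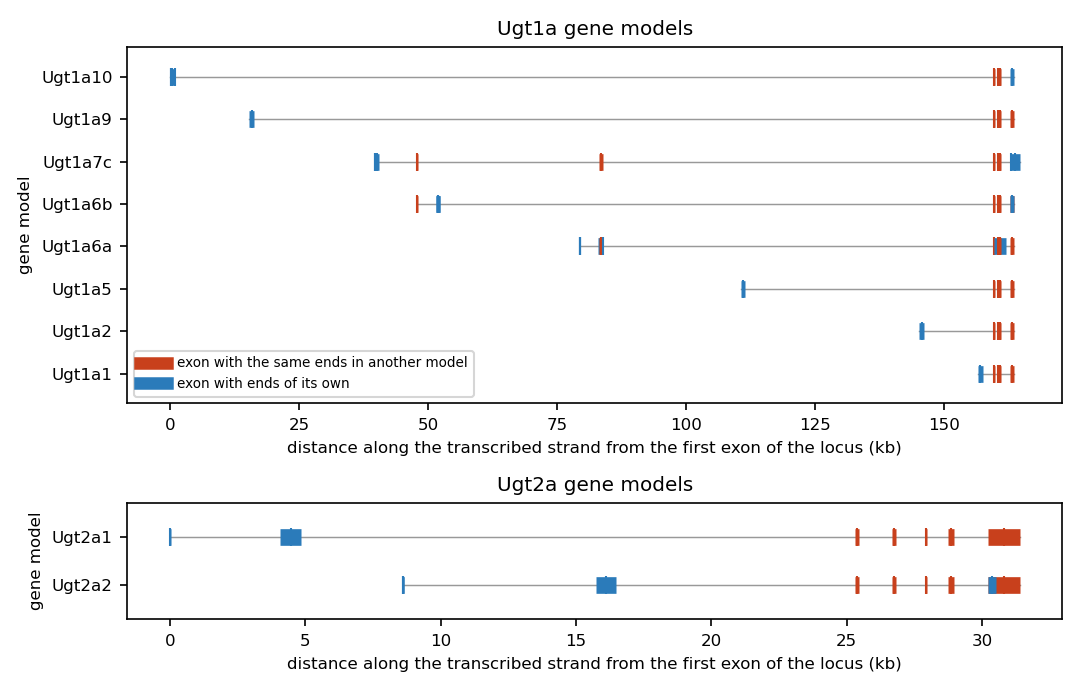
Exons of the Ugt1a models (upper panel) and of Ugt2a1 and Ugt2a2 (lower panel), with the distance along the transcribed strand from the first exon of the locus in kb on the x-axis and 1 gene model per row. Red exons have the same ends in another model and blue exons have ends of their own. The exons common to a locus lie at its end, and most models reach them from a first exon of their own. The exceptions are upstream exons that Ugt1a7c has in common with Ugt1a6b and with Ugt1a6a, also red.

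The counts show the same limit. The deposited tables hold 1 column taken to be reads that map to 1 place and 1 column of estimated counts, in which reads of several places were shared out. In the first of these, Ugt1a2, Ugt1a5, Ugt1a9 and Ugt1a10 each had 4501 counts summed over the 9 mice. Beyond this common number Ugt1a1 had 21 further counts, Ugt1a6a 34, Ugt1a6b 9 and Ugt1a7c 597, the last being 11.7% of its own total. Nearly all reads of the 8 models thus lie in the exons they share. For Ugt2a1 and Ugt2a2 the counts differed by 1.13% to 3.24% per mouse. In what follows the 8 Ugt1a models are counted as 1 locus, shown by Ugt1a7c, and Ugt2a1 with Ugt2a2 as another, shown by Ugt2a1.

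The total estimated count per mouse lay between 5438501 and 9707581, and a floor of 3 counts corresponded to 0.309 to 0.552 CPM before normalization. CPM are counts scaled to the size of the library, and all other CPM given here are normalized by the TMM method. Since PCR amplified the cDNA and molecules carried no identifiers, these floors cover counting error only. The 3 P22 libraries stood apart from the others by base composition. In the decile of genes with the lowest GC content, the median deviation from the mean of all libraries was −0.80, −0.92 and −0.49 on the log2 scale in the P22 control, 1% and 100% mice, −0.17 in the P21 mouse at 1% heptanal and 0.45 to 0.60 in the other 5. Sustentacular cell markers (6 genes, among them Cyp2g1 and Cbr2) summed to 6913 to 8375 CPM in controls, 7156 to 9124 at 1% and 10014 to 13061 at 100% heptanal, and were higher than the control on 3 of 3 days at 100%. Markers of mature OSNs (5 genes) summed to 4237 to 8713, 6154 to 8480 and 10557 to 14890 CPM, also higher on 3 of 3 days at 100%. Those of immature OSNs (4 genes) summed to 425 to 786, 462 to 1044 and 743 to 913 CPM, higher on 3 of 3 days at 1% and at 100%. The 4 Bowman gland markers summed to 1092 to 1459, 1146 to 1446 and 1039 to 1176 CPM, lower than the control on 3 of 3 days at 100%. No marker in these lists was at 0 in all 9 mice. The 6 red cell genes summed to 1361 to 15917 CPM, with the 3 P18 mice lowest (1361 to 2250 CPM). They are not all separate measurements, since Hba-a1 and Hba-a2 had equal values in every mouse, as did Hbb-bs and Hbb-b1. The 4 leukocyte markers summed to 103 to 271 CPM. Red cell and leukocyte sums were both lower than the control on 3 of 3 days at 100%.

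Of the 63 genes, 47 had a count in at least 1 mouse and 39 in all 9. The 16 genes at 0 in all 9 mice were Gstt4, the bile acid and steroid sulfotransferases Sult2a1, Sult2a2, Sult2a3, Sult2a4, Sult2a5, Sult2a6 and Sult2a7, Sult3a1, and Ugt2b5, Ugt2b35, Ugt2b36, Ugt2b37, Ugt2b38, Ugt3a1 and Ugt3a2. In each library this allows a level of up to the floor just given. A further 8 genes had too few counts to be tested. They were Gsta1, Gstm3, the estrogen sulfotransferase Sult1e1, Sult1b1, Sult1c2, Ugt2a3, Ugt2b1 and Ugt2b34, of which the last 3 had 1 count in 1 mouse. This left 39 genes, namely 21 glutathione, 11 glucuronide and 7 sulfate enzymes, at 31 loci.

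Levels of different genes were compared per kb of exon, with the length taken over all annotated exon bases of a gene. The methods name a poly-T primer, and nearly all Ugt1a reads lay in the exons at the end of the locus. If reads of other genes also lie near the end of the transcript, this scale sets long genes too low. On the scale of CPM per kb of exon, averaged over the 9 mice, Gstm1, a cytosolic transferase of the mu class, was first with 1313 CPM per kb (786 to 1812). Ugt2a1, the glucuronosyltransferase known for its high expression in the olfactory epithelium, followed with 438 CPM per kb (21.2 to 745), and Gsto1, an omega class enzyme that also reduces dehydroascorbate, with 365 CPM per kb (228 to 551). Next came the sulfotransferase Sult1c1 with 172 CPM per kb (2.75 to 556), the microsomal Mgst1 with 106 CPM per kb (17.9 to 163), and Sult4a1, a sulfotransferase known from neurons, with 93.3 CPM per kb (61.1 to 136). The Ugt1a locus, shown by Ugt1a7c, had 18.1 CPM per kb (11.4 to 33.6). This depends on the model, since Ugt1a7c has more exon sequence than most. On nearly the same counts Ugt1a6a had 15.7 CPM per kb (9.64 to 30.2), and the other 6 models had 28.3 (Ugt1a6b) to 30.3 CPM per kb (Ugt1a9). Below Ugt1a7c lay Gsta3, an alpha class transferase, with 15.4 CPM per kb (1.56 to 22.1), and Sult1a1, a phenol sulfotransferase, with 11.2 CPM per kb (4.75 to 27.4). Gsta3 has 4344 annotated exon bases but 1457 in its longest coding transcript, which lowers its value on this scale. The same holds for Gstz1 (5088 and 1656 bases) and Mgst2 (3703 and 603 bases). The lowest of the tested genes was Ugt8a, which adds galactose to ceramide in the making of myelin lipids, with 0.320 CPM per kb (0 to 1.08).

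The order is coarse. By mean CPM without division by length, Gstm1, Ugt2a1, Ugt2a2, Gsto1 and Sult1c1 still came first in this order. Sult4a1 (234 CPM) then came before Mgst1 (214 CPM). In the 39 tested genes ordered by level per kb, the ranges of neighbors overlap in 36 of 38 pairs, and those of Gstm1 and Ugt2a1 do not. On counts of reads of 1 place, Gstm1 falls to rank 4 behind Ugt2a1, Ugt2a2 and Gsto1, Gstm2 from rank 10 to rank 22 and Gstp1 from rank 12 to rank 27. For these genes a small part of the estimated counts came from such reads, 16.2% for Gstm1, 20.1% for Gstm2 and 13.2% for Gstp1. The 50-base windows of the transcripts show where some of the others may go. In Gstp1, 62.3% of windows also occur in Gstp2, and in Gstm1 17.3% occur in the pseudogene Gstm2-ps1. In any other gene, 23.1% of the Gstm1 windows and 9.36% of the Gstm2 windows occur, although most counts of both genes came from shared reads. Sult1c1, Sult4a1, Gsto1 and Mgst1 had 100% of their estimated counts from reads of 1 place, Mgst3 90.8% and Gstm4 88.9%.

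**Figure D2:**
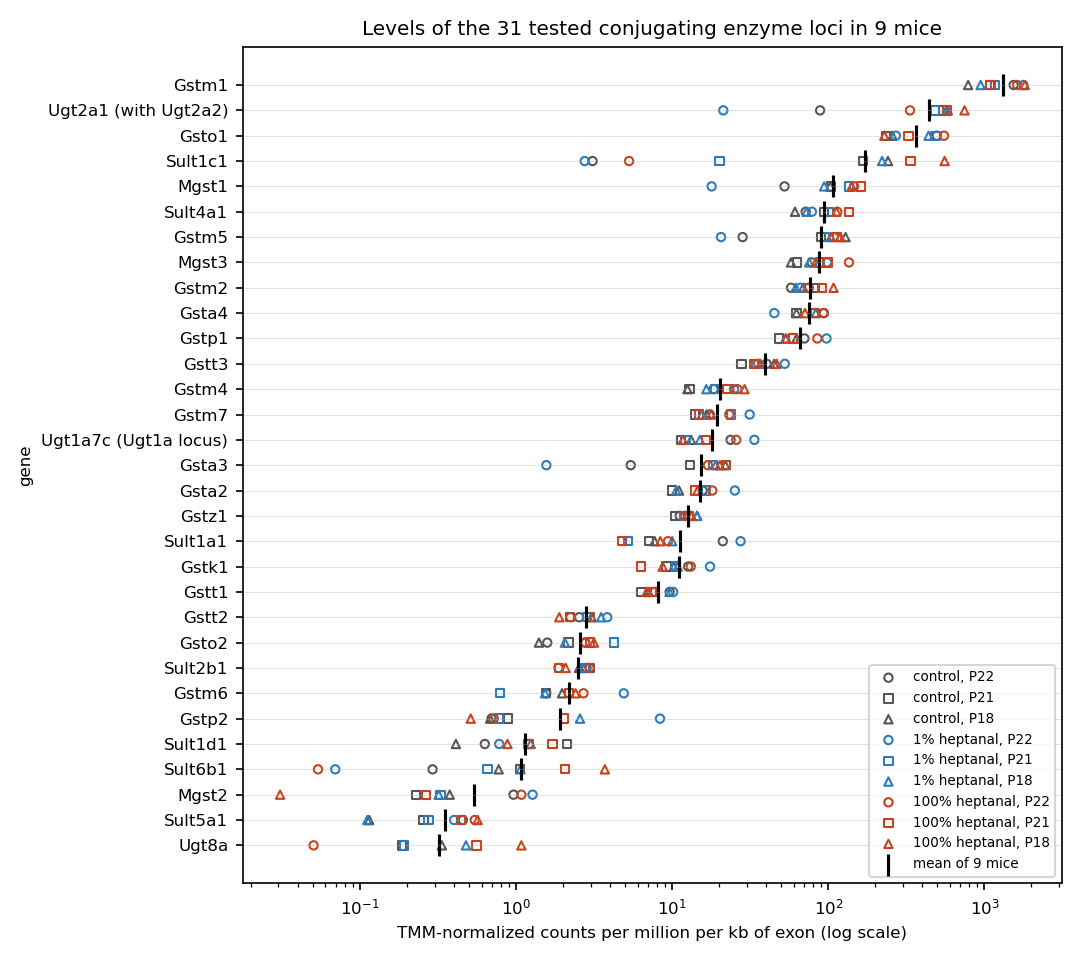
Levels of the 31 tested conjugating enzyme loci, in TMM-normalized CPM per kb of exon on a log x-axis, with 1 row per locus, 1 point per mouse (color for group, shape for day) and a bar at the mean of the 9 mice. Gstm1 lies highest and shows little spread, whereas Sult1c1 and Ugt2a1 spread widely, and counts of 0, which Ugt8a has in 2 mice, are not drawn on the log axis.

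By the estimated counts with 1 model per locus, glutathione enzymes made up 69.7% ± 13.0 (SD, n = 9) of the counts on all conjugating enzymes, glucuronide enzymes 21.1% (4.28% to 30.9%) and sulfate enzymes 9.27% (4.90% to 15.5%). Single genes held much of this. Gstm1 took 35.1% (23.5% to 57.0%), Ugt2a1 19.6% (1.19% to 29.8%), Gsto1 13.5%, Sult1c1 4.42% (0.0932% to 11.3%) and Sult4a1 4.19%. These percentages rest on how shared reads were assigned, for Gstm1 most of all. In reads of 1 place, summed over the 9 mice, Gstm1 had 21539 counts, fewer than Ugt2a1 (72732) and Gsto1 (50827).

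The first question of the design is which mRNAs differ in recovery between mice exposed to heptanal and controls. With edgeR's quasi-likelihood test and Benjamini-Hochberg adjustment over all 14930 genes tested, 0 of the 39 conjugating enzymes were called at 1% heptanal, where 0% of all genes were, and 0 at 100% heptanal, where 0.0134% of all genes were. With postnatal day as a block, 0 were again called at 1% (0% of all genes) and 0 at 100% (0.322% of all genes). At an unadjusted p below 0.05 the test without the block had 1 of the 39 higher at 1% (0.335% of all genes) and 0 lower (0.462%), and 3 higher at 100% (3.01%) and 0 lower (1.17%). The blocked test had 3 higher at 1% (1.32%) and 0 lower (1.94%), and 5 higher at 100% (6.64%) and 0 lower (3.79%). DESeq2 called 0 of the 39 without the block at 1% (0.0067% of all genes) and at 100% (0.455%). With the block it called 0 at 1% (0.0201%) and 2 at 100% (1.75%), Sult4a1 and Mgst3, both higher. The values of single genes are therefore given as they stand, mouse by mouse. In every list the order of the days is P22, P21 and P18.

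Among the glutathione enzymes, Mgst3, a microsomal transferase that also acts on leukotrienes and lipid peroxides (chr1:167371966-167393841, minus strand), had higher values at each concentration. It had 85.8, 69.2 and 63.2 CPM in the controls, 108, 97.3 and 82.7 at 1% and 149, 108 and 91.2 at 100% heptanal. Every exposed mouse lay above the control of its own day, and the 3 mice at 100% lay above all 3 controls. The ratio to the control of the same day was 1.25, 1.41 and 1.31 at 1% and 1.73, 1.57 and 1.44 at 100%. In the blocked fit the log2 fold change was 0.40 (SE 0.134; unadjusted p = 0.0152 in edgeR) at 1% and 0.66 (SE 0.134, 95% interval 0.35 to 0.96) at 100%. The latter had an adjusted p of 0.110 in edgeR and 0.0231 in DESeq2 with the block.

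Gstm4, a mu class transferase (chr3:108040408-108044894, minus strand), had a similar course at a lower level. It had 31.4, 22.0 and 21.4 CPM in the controls, 42.5, 32.1 and 28.2 at 1% and 44.6, 38.6 and 49.5 at 100% heptanal. On each day the order was control, 1%, 100%, and the groups at 100% and control did not overlap. The ratios to the control of the same day at 100% were 1.42, 1.75 and 2.32. The blocked log2 fold change at 100% was 0.85 (SE 0.201, 95% interval 0.40 to 1.31), with an adjusted p of 0.163 in edgeR.

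Mgst1, the microsomal transferase that conjugates hydrophobic electrophiles (chr6:138140316-138156755, plus strand), had 105, 209 and 207 CPM in the controls, 36.0, 274 and 189 at 1% and 294, 327 and 284 at 100% heptanal. The mice at 100% were all above the controls, and the P22 mouse at 1% was the lowest of the 9. The blocked log2 fold change at 100% was 0.94 (SE 0.433, adjusted p = 0.497 in edgeR). With the P21 and P18 mice alone it was 0.54.

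Gstm1, the most abundant enzyme by the estimated counts (chr3:108012255-108017973, minus strand), had 2265, 1597 and 1158 CPM in the controls, 2615, 1717 and 1392 at 1% and 2384, 1612 and 2669 at 100% heptanal. The groups overlap, and the ratio to the same day's control at 100%, 1.05, 1.01 and 2.31, was far from 1 at P18 alone. Gsto1 (chr19:47854970-47864790, plus strand) had 1001, 473 and 520.4 CPM in the controls, 548, 983 and 886 at 1% and 1114, 661 and 462 at 100%. At 1% heptanal it was below the control at P22 and above it on the other days, with ratios of 0.547, 2.08 and 1.70, so the days disagreed in direction. Gstm2, another mu class enzyme, had 117 ± 20.2 CPM (SD, n = 3) in controls, 113 ± 10.7 at 1% and 153 ± 27.7 at 100%, and Gstt3, of the theta class, 145 ± 34.2, 158 ± 38.2 and 148 ± 27.4. In both genes the group means at 1% and control differed by less than the SDs.

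3 glutathione genes had under 10% of their estimated counts from reads of 1 place, so that their values rest on how shared reads were assigned. Gstp2, a pi class gene next to Gstp1 (chr19:4040285-4046023, minus strand), had 0.774, 0.986 and 0.758 CPM in the controls, 9.29, 0.869 and 2.85 at 1% and 0.800, 2.24 and 0.569 at 100% heptanal. The P22 mouse at 1% alone was far above the others, with 63.1 estimated counts of which 2 came from reads of 1 place. It was the gene with an unadjusted p below 0.05 at 1% without the block (log2 fold change 2.35, SE 0.921, unadjusted p = 0.0317 in edgeR). Gsta2, of the alpha class, had 14.4 ± 3.57 CPM in controls, 20.5 ± 8.63 at 1% and 18.3 ± 2.58 at 100% (SD, n = 3), with 4.59% of its counts from reads of 1 place. Gsta1 had 0% from such reads, at most 3.31 CPM in any mouse and was not tested. Between Gsta2 and Gsta1, 44.8% of the 50-base windows of Gsta2 are shared.

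Over the 21 tested glutathione enzymes, 16 had a fold change above 0 at 1% heptanal and 17 at 100%, with medians of 0.27 and 0.35 on the log2 scale in the fit without the block. The medians of all genes tested were −0.02 and −0.03. With counts of reads of 1 place alone, the blocked log2 fold change at 100% was 0.52 for Gstm1 (SE 0.255), 0.30 for Gstm2 (SE 0.199) and 0.83 for Gstm4 (SE 0.208). The estimated counts gave 0.46, 0.40 and 0.85.

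Further glutathione enzymes also differed among the 9 mice. Gsta3 had 23.5, 56.4 and 95.2 CPM in the controls, 6.78, 79.2 and 82.6 at 1% and 73.5, 96.1 and 87.7 at 100% heptanal. Gstm5, a mu class enzyme known from brain and testis, had 36.1, 114 and 165 CPM in the controls, 26.2, 122 and 132 at 1% and 139, 145 and 152 at 100%. In both, as in Mgst1, the P22 mouse at 1% was the lowest of all and the P22 mouse at 100% lay near the mice of the other days. Gstp1, the main pi class enzyme, went the other way between days, with 109, 75.1 and 96.8 CPM in the controls, 151, 91.7 and 82.2 at 1% and 132, 91.7 and 83.1 at 100%. Its 3 P22 mice lay above the other 6. As given above, most of its counts came from shared reads. Gstt1 had 14.7, 9.72 and 10.7 CPM in the controls, 15.5, 11.8 and 14.7 at 1% and 11.8, 11.4 and 10.5 at 100%, so that each mouse at 1% exceeded its control and each at 100% was below its mouse at 1%. Mgst2, a relative of leukotriene C4 synthase, was highest in the 3 P22 mice, with 3.56 to 4.72 CPM against 0.114 to 1.39 CPM in the other 6, and its lowest value, in the P18 mouse at 100%, is a single count. Gsto2, an omega class enzyme, and Gstm6 did not overlap between 100% heptanal and controls, but at low levels of at most 9.90 and 9.73 CPM. Gsta4, which conjugates the lipid aldehyde 4-hydroxynonenal, ranged from 57.1 to 119 CPM, and Gstz1, an enzyme of tyrosine breakdown, from 53.4 to 73.4 CPM, the narrowest range of all in relation to its level.

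**Figure D3:**
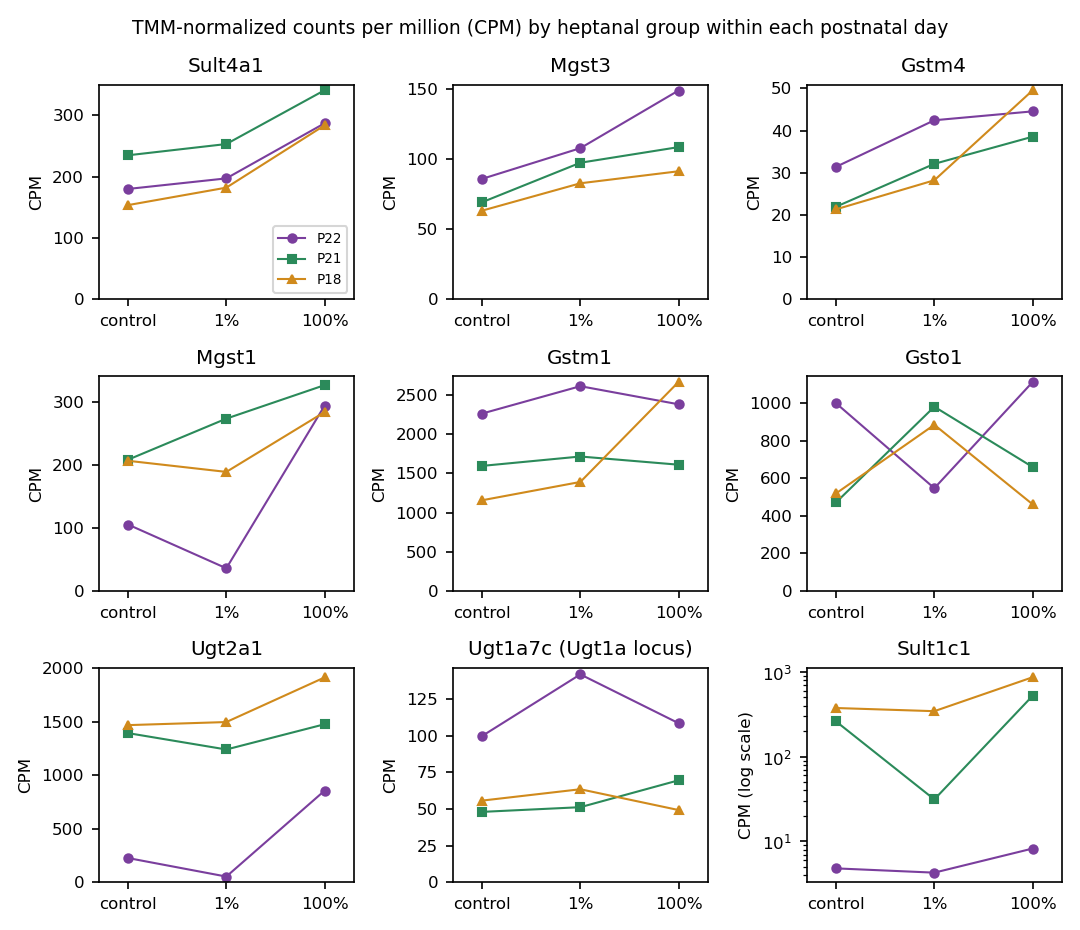
TMM-normalized CPM of the named enzymes in the control, 1% and 100% heptanal mouse of each postnatal day, 1 panel per gene and 1 line per day (Sult1c1 on a log y-axis, the others from 0). The points of Mgst3, Gstm4 and Sult4a1 are higher at 100% than in the control on all 3 days, while those of Sult1c1 lie far lower at P22 than at P21 and P18 in each group, and those of Ugt2a1 are lower at P22, by most in the control and 1% mice.

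Of the glucuronide enzymes, Ugt2a1 (chr5:87459490-87490871, minus strand) had 228, 1395 and 1469 CPM in the controls, 54.6, 1242 and 1498 at 1% and 857, 1478 and 1915 at 100% heptanal. The 3 P22 mice lay below the other 6, and within P22 they spanned 54.6 to 857 CPM. The ratio to the control of the same day was 0.240, 0.890 and 1.02 at 1% and 3.77, 1.06 and 1.30 at 100%. The blocked log2 fold change at 100% was 0.98 (SE 0.595, adjusted p = 0.623 in edgeR), 0.75 after correction for GC content and 0.22 with the P21 and P18 mice alone. The size of this difference thus depended on the P22 mice. Ugt2a2, which shares most of its reads with Ugt2a1, had 221, 1357 and 1401 CPM in the controls and 843, 1413 and 1852 at 100%.

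The Ugt1a locus, whose products act on bilirubin and phenols, had 99.8, 48.1 and 55.7 CPM by Ugt1a7c in the controls, 142, 51.2 and 63.5 at 1% and 108, 69.6 and 49.3 at 100% heptanal. All 3 mice at 1% lay above the control of their day, with ratios of 1.42, 1.07 and 1.14, whereas at 100% the ratios were 1.09, 1.45 and 0.885. The groups overlap, and the blocked log2 fold changes were 0.27 (SE 0.192) at 1% and 0.17 (SE 0.192) at 100%. Ugt1a2 and Ugt1a5, which had the same counts as each other in every mouse, gave 0.31 and 0.18. Ugt8a, at most 4.90 CPM, was at 0 in the P22 control and the P22 mouse at 1%. Median fold changes of the 11 tested glucuronide models were 0.36 at 1% and 0.16 at 100% on the log2 scale, but 8 of the 11 are models of 1 locus.

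Of the sulfate enzymes, Sult4a1 (chr15:84076097-84105754, minus strand), for which no substrate is well established, had 179.8, 235 and 154 CPM in the controls, 197, 253 and 182 at 1% and 287, 340.5 and 283 at 100% heptanal. The 3 mice at 100% were above every control and every mouse at 1%, and the 3 at 1% each lay slightly above the control of their day. The group means were 189 ± 41.4, 211 ± 37.4 and 303 ± 32.1 CPM (SD, n = 3). The ratio to the control of the same day at 100% was 1.59, 1.45 and 1.85. The log2 fold change at 100% was 0.68 (SE 0.213, adjusted p = 0.911 in edgeR) without the block and 0.70 (SE 0.125, 95% interval 0.42 to 0.98, adjusted p = 0.0697 in edgeR) with it. DESeq2 with the block gave an adjusted p of 0.00146. Between 100% and 1% heptanal the blocked log2 fold change was 0.54 (SE 0.124, adjusted p = 0.229 in edgeR). The sum of the mature OSN markers was also higher at 100% than in the control on every day. With libraries scaled to the geometric mean of these markers, the log2 fold change of Sult4a1 at 100% turned to −0.11 without the block. The median of all genes then moved to −0.89. On the same scale without the block Mgst3 turned to −0.19.

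Sult1c1 (chr17:53961615-53990674, minus strand) spanned a 202-fold range between its lowest and highest mouse, the widest among the tested enzymes with a count in every mouse. It had 4.80, 260.0 and 375 CPM in the controls, 4.28, 31.3 and 344 at 1% and 8.23, 522 and 865 at 100% heptanal. The 3 P22 mice had 4.28 to 8.23 CPM, below all others, and outside P22 the mouse at 1% of P21 was the lowest. At 100% heptanal the gene was 1.71, 2.01 and 2.31 times the control of the same day, and at 1% 0.891, 0.120 and 0.918 times. The blocked log2 fold change at 100% was 1.00 (SE 0.517, adjusted p = 0.543 in edgeR). Without the P21 mouse at 1% the blocked fit gave an adjusted p of 0.0498 for it in edgeR, so that 1 library decides this call. Sult1a1 had 18.0 ± 11.9 CPM in controls, 21.4 ± 17.6 at 1% and 11.3 ± 3.69 at 100% (SD, n = 3), a difference below the spread. The rest of the tested sulfate enzymes, Sult1d1, Sult2b1, Sult5a1 and Sult6b1, lay lower. Sult2b1, the cholesterol sulfotransferase, ranged from 7.37 to 11.7 CPM, and no mouse had more than 7.86 CPM of the others.

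**Figure D4:**
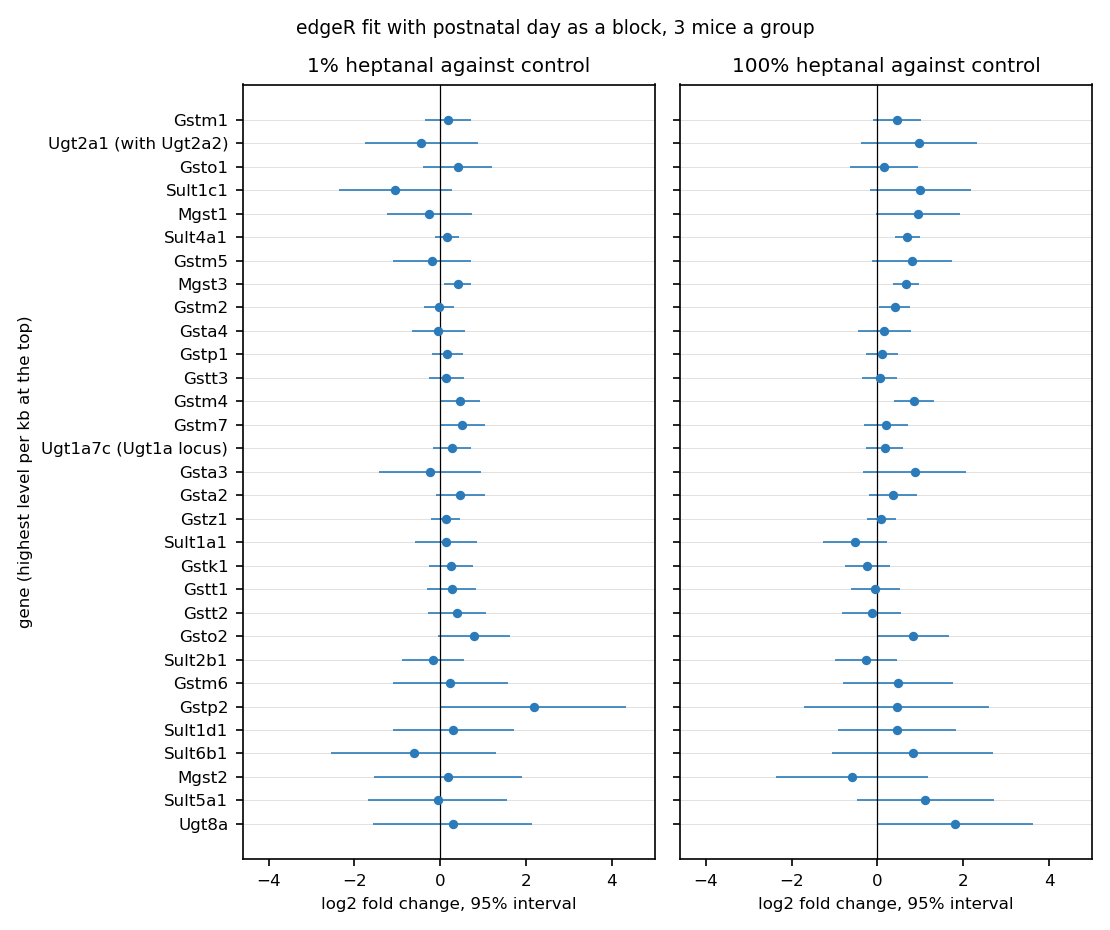
Log2 fold changes at 1% and at 100% heptanal against controls, with 95% intervals, from the edgeR fit with postnatal day as a block (3 mice a group), for the tested loci ordered by level per kb with the highest at the top. Without adjustment for the number of genes, at 100% heptanal the intervals of Sult4a1 (0.42 to 0.98), Mgst3 (0.35 to 0.96), Gstm4 (0.40 to 1.31), Gstm2 (0.04 to 0.75) and Ugt8a (0.01 to 3.61) lie above 0, as do those of Mgst3, Gstm4 and Gstp2 at 1%, and no enzyme has an interval wholly below 0.

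Counted without regard to size, 6 of the 39 genes (Gstm4, Gstm6, Gsto2, Mgst1, Mgst3 and Sult4a1) had all 3 mice at 100% heptanal above all 3 controls, against 5.97% of all genes, and 0 had all below, against 3.55%. At 1% heptanal 0 lay wholly above, against 2.28%, and 0 below, against 1.64%. Within days, 15 genes at 14 loci were higher at 100% heptanal on 3 of 3 days, against 18.4% of all genes, and 0 were lower on 3 of 3, against 18.1%. At 1% heptanal, 16 genes at 9 loci were higher on 3 of 3 days, against 11.5%, and Sult1c1 alone was lower on 3 of 3, against 11.7%. The median fold change over the 39 genes was 0.27 at 1% and 0.22 at 100% on the log2 scale, and over the 31 loci 0.21 and 0.40. Both lists of comparisons share the same 3 controls.

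Between the concentrations, 0 of the 39 genes were called by edgeR without the block (0.0134% of all genes) or with it (0.0804%). At an unadjusted p below 0.05 there was 1 higher at 100% without the block (2.1% of all genes), Sult4a1, and 0 lower (1.17%). With the block there were 5 higher (6.74%), namely Gstm2, Gstm5, Mgst1, Sult1c1 and Sult4a1, and 0 lower (3.68%). DESeq2 called 0 without the block (0.167%) and 1, Sult4a1, with it (1.41%). At 100% heptanal 5 genes (Gstm2, Gstm5, Mgst1, Sult4a1 and Sult5a1) lay wholly above the mice at 1%, against 4.73% of all genes, and Gstt1, a theta class enzyme, lay wholly below, against 4.15%. On 3 of 3 days, 12 genes were higher at 100% than at 1% (16.9%), and Gstk1, Gstt1, Mgst2 and Sult1a1 were lower (15.6%).

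Together the conjugating enzymes took 0.623% ± 0.0521 (SD, n = 3) of all counts in controls, 0.679% ± 0.135 at 1% and 0.840% ± 0.122 at 100% heptanal. The share at 100% was 1.35 times that of controls, and 1.36, 1.15 and 1.54 times at P22, P21 and P18. The difference had p = 0.1 in a two-sided exact permutation test of 3 mice against 3, the smallest p that this unpaired test allows, and the share at 1% had p = 0.6 in the same test. With the P21 and P18 mice alone the ratio was 1.34. With 1 model per locus the shares were 0.485% ± 0.0162, 0.532% ± 0.0852 and 0.658% ± 0.0945. By family, the ratio of 100% heptanal to control was 1.29 for the glutathione enzymes (exact permutation p = 0.2), 1.34 for the glucuronide enzymes (p = 0.4) and 1.84 for the sulfate enzymes (p = 0.3), 3 tests beside that of the sum. These tests exchange mice across days, and within days each family was higher at 100% on 3 of 3 days. Relative to the sum of the sustentacular markers, the share of the conjugating enzymes at 100% heptanal was 0.900 times that of controls (exact permutation p = 0.4), with 1.14, 0.845 and 0.778 times at P22, P21 and P18, so the direction turned at P21 and P18 and not at P22. The sulfate enzymes remained higher on this scale, at 1.16 times the controls (exact permutation p = 0.6) and on 3 of 3 days. The part of this in the values above was not tested.

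A second comparison is between the 3 postnatal days, that is, the 3 replications. In the blocked edgeR fit, 16 of the 39 genes, at 8 of 31 loci (25.8%), differed between days, against 27.1% of all genes. They were the 8 Ugt1a models, Ugt2a1, Ugt2a2, Gstp1, Mgst3, Sult1a1, Sult1c1, Sult6b1 and Ugt8a. At an unadjusted p below 0.05 there were 22 genes at 14 loci, against 41.3% of all genes. In 5 genes, Sult1c1, Sult6b1, Ugt2a1, Ugt2a2 and Ugt8a, all 3 P22 mice lay below the other 6, against 15.0% of all genes, and in 11 genes at 4 loci, the Ugt1a models, Gstk1, Gstp1 and Mgst2, they lay above, against 9.4%. Sult1c1 had the lowest adjusted p of 0.00127, and its mean log2(CPM + 1) at P22 minus that of the other 6 mice was −5.42. For Ugt2a1 this difference was −2.75 (adjusted p = 0.0344 in edgeR). The Ugt1a locus went the other way, with a difference of 1.04 in Ugt1a7c and 1.14 in Ugt1a2 and Ugt1a5 (adjusted p = 0.00388 for each of the latter in edgeR). Gstp1 (adjusted p = 0.0350), Mgst3 (0.0476) and Sult1a1 (0.0145) were also higher at P22 in mean level.

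These differences have to be read beside the base composition of the libraries. Over all genes with a known transcript, the difference between P22 and the other mice had a Spearman's rho of 0.50 with GC content. This is across genes, which are not independent replicates. Over the 39 conjugating enzymes rho was 0.16, with the 8 Ugt1a models entered as separate points of nearly the same values. No rho with 1 model per locus was computed. Ugt2a1 has 39.9% GC, and genes of the same decile of GC content had a median difference of −1.10. Sult1c1 has 42.8% GC, and its decile had a median of −0.74, far from the value of the gene itself. Ugt1a7c has 44.8% GC, and its decile had a median of −0.38 while the gene was higher at P22. After correction for GC content 14 genes at 7 loci differed between days, against 26.4% of all genes, namely the 8 Ugt1a models, Gstm5, Mgst2, Sult1a1, Sult1c1, Sult1d1 and Sult4a1, and at an unadjusted p below 0.05 there were 19 genes at 12 loci, against 40.4%. Sult1c1 remained among them (adjusted p = 0.00116 in edgeR), and Ugt2a1 did not (0.206). Between P21 and P18 alone, 0 of 40 genes tested differed in edgeR, against 0.924% of all genes, with 3 (Gstt3, Sult1c1 and Sult4a1) at an unadjusted p below 0.05, against 20.2%. DESeq2 was not run for this comparison.

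**Figure D5:**
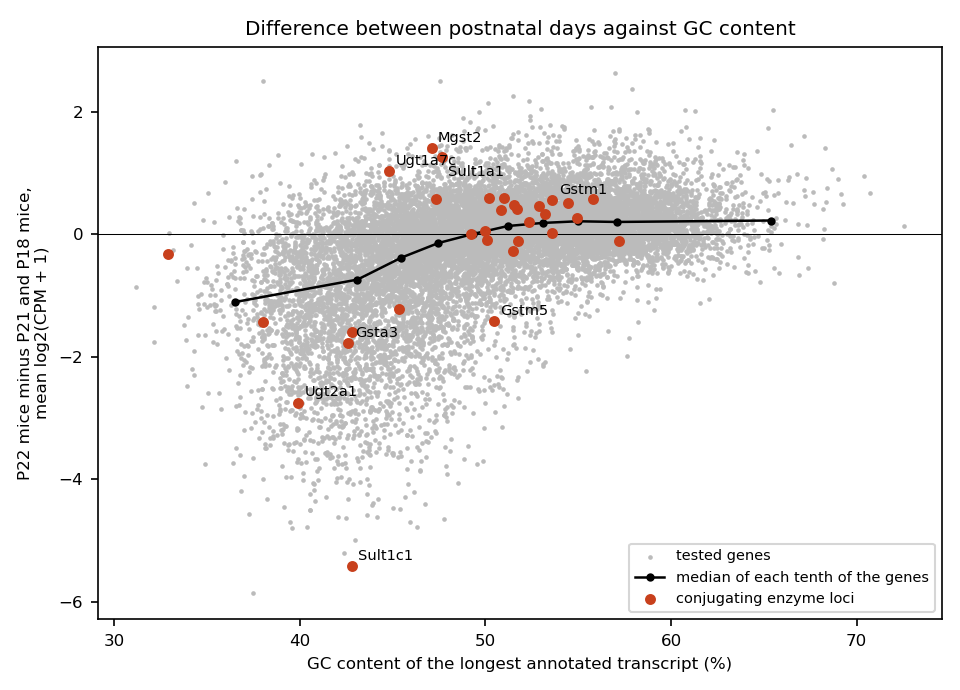
Difference between the P22 mice and the P21 and P18 mice in mean log2(CPM + 1) on the y-axis against the GC content of the longest annotated transcript in percent on the x-axis, for all genes tested and, in red, for the 31 conjugating enzyme loci, with a line through the median of each GC decile. Sult1c1 (−5.42) and Ugt2a1 (−2.75) lie below the median of genes of like GC content, and Ugt1a7c (1.04) lies above them.

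Sustentacular markers did not separate the P22 mice as a sum, with 8284 to 10014 CPM at P22 and 6913 to 13061 CPM in the others. The sums of 2 other lists lay wholly lower at P22. They were the immature OSN markers (425 to 743 CPM at P22, 753 to 1044 CPM in the others) and 4 markers of ciliated respiratory cells (312 to 420 and 446 to 536 CPM). The sums of the remaining lists overlapped. Some single markers of sustentacular cells or the Bowman gland lay wholly apart at P22, in both directions, but Ermn was the only sustentacular one. Ermn had 0.295 to 7.77 CPM at P22 and 21.2 to 115 CPM in the other 6 mice, and the Bowman gland gene Gpx6 33.1 to 313 and 589 to 954 CPM. The gland gene Aqp5 lay wholly above, with 293 to 472 CPM at P22 and 191 to 258 CPM in the others, while the gland gene Muc5b (391 to 671 and 172 to 432 CPM) and the sustentacular Cyp1a2 (584 to 868 and 380 to 664 CPM) were mostly higher at P22 and overlapped. Their part in the day differences of Ugt2a1 and Sult1c1 was not tested.

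The enzymes depend on cosubstrates, and 45 genes that make, carry or remove these, export the conjugates or regulate the enzymes were listed. The tables hold 44 of them, edgeR tested 41, and in its fits 0 were called at 1% or 100% heptanal, without or with the block, as by DESeq2. At an unadjusted p below 0.05 in the blocked edgeR fit, 1 was higher and 1 lower at 1% (1.32% and 1.94% of all genes), and 1 was higher at 100% (6.64%). The last was Gusb, the β-glucuronidase that removes glucuronic acid, with a log2 fold change of 0.51 (adjusted p = 0.297 in edgeR with the block). The medians over the 41 genes were −0.03 at 1% and −0.10 at 100% on the log2 scale without the block, near those of all genes. Between days 13 of the 41 differed (31.7%, against 27.1% of all genes), and 11 after correction for GC content. Among the 13 were Gclm, a subunit of the enzyme that starts glutathione synthesis, and Gsr, which reduces oxidized glutathione, both higher at P22, and Slc7a11, the cystine carrier, and Slc35d1, a UDP-sugar carrier, both lower.

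Promoters of the enzymes were searched on both strands for the core of the antioxidant response element, TGACNNNGC, which the factor Nrf2 binds, and for GCGTG, the core bound by the Ah receptor. In the RefSeq promoter windows of GRCm38.p6, 55 of the 63 genes had an entry. The first motif was found in 4 of them (7.27%), Gsta3, Gstm5, Gstm7 and Mgst1, against 14.0% of all genes, and the second in 11 (20%), against 35.2%.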

How the data were processed

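RNAseq of pS6-IP from the OE of 9 mice was used, and 1 table per mouse. The authors aligned reads with Bowtie to mm10 and counted them on genes with BEDTools, by the submitters' processing notes, and shared out reads of several places by a rescue scheme. The tables have no header, so columns were identified from their values. The estimated counts deposited in column 21 were rounded and entered every result, and the counts deposited in column 2, taken as reads of 1 place, were an alternative. Reads shared by paralogs or by overlapping gene models therefore depend on that scheme.

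The tests are quasi-likelihood tests of edgeR 4.0.16 under R 4.3.3 (filterByExpr, TMM, glmQLFit, glmQLFTest) over 3 groups. The methods name edgeR without its design, so the fit has no block, and a fit with postnatal day as a block stands beside it. Mice of the same day deviated together (mean r = 0.573 over 9 pairs, lowest 0.179), so the days pair the mice. Benjamini-Hochberg adjustment ran over all 14930 genes tested, at a threshold of 0.05. Alternatives were DESeq2 1.42.0, other scalings and filters, column 2 and leaving out each mouse, with 35 settings in all. CPM are normalized by TMM, and lengths and GC content came from GENCODE annotation of GRCm38 (GC for 94.3% of genes). GC content was corrected with a lowess curve per library. Shares of counts were tested with exact permutation tests in scipy 1.17.1, with numpy 2.4.6, pandas 2.3.3 and matplotlib 3.10.9. The test scripts were tested on simulated data. P-values measure the spread between single mice.

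The genes and lists were chosen with earlier results of these data known. The genes named by rule are those past the threshold at a concentration (0 qualified), the 5 glutathione and 3 each of the glucuronide and sulfate enzymes with the highest mean CPM, the 3 with the lowest p at each concentration in the blocked fit and between days, those with under 10% of counts from reads of 1 place, and those at 0. Gsta3, Gsta4, Gstm5, Gstm6, Gstm7, Gsto2, Gstk1, Gstp1, Gstt1, Gstz1, Mgst2, Sult1d1, Sult2b1, Sult5a1, Sult6b1 and Ugt8a, and the pathway genes and cell markers with values, were named after their values were seen.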

Additional observations from a re-analysis of the deposited data

How the results depend on the processing

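The counts of enzymes called at 1% heptanal were 0 under all alternatives. With the replicate block in edgeR the counts at 100% heptanal and between the concentrations were also 0, so in edgeR the block changed no call, whereas in DESeq2 it added calls. At 100% heptanal, where the count was 0, it was 2 with DESeq2 and the block, 1 when scaled to the OSN markers with the block (Sult1a1, lower), 6 when scaled to the sustentacular markers with the block (all lower) and 0 to 1 when each mouse was left out. Between 100% and 1% heptanal it was 1 with DESeq2 and the block and 19 under either marker scaling with the block. Between postnatal days, where 16 were called, it was 8 with 1 model per locus, 25 with the sustentacular scaling, 10 to 16 when each mouse was left out (10 without the P22 control) and 0 with the P21 and P18 mice alone. The marker scalings moved the median of all genes at 100% heptanal to −0.89 (OSN) and −0.78 (sustentacular), and changes under them are relative to that shift. They use the geometric mean of the marker counts, in which a low marker such as Ermn (0.295 to 7.77 CPM at P22) weighs as much as a high one. The share of all genes called under these scalings was not counted. Counts of enzymes or pathway genes called under them are therefore not a result particular to these genes. The median of the enzymes at 1% heptanal was 0.36 with the OSN scaling, 0.18 with no filter and the block, 0.16 and 0.17 with the P21 and P18 mice alone without and with the block, and 0.13 to 0.45 when each mouse was left out (0.19 without the P22 mouse at 1% and with the block). At 100% heptanal it was −0.66 and −0.61 with the OSN scaling without and with the block, −0.50 and −0.56 with the sustentacular scaling, and 0.17 to 0.54 when each mouse was left out. At 100% every enzyme named by rule, except Sult1c1, changed sign under at least 1 alternative. Under the marker scalings, without and with the block, those of Mgst3 (down to −0.19), Sult4a1 (−0.11), Gstm1 (−0.42) and Gstm2 (−0.41) lay below 0, and that of Ugt2a1 did so without the block (−0.39). The fold change of Gstt3 at 100% was −0.73, and 24 pathway genes were called at 100%, with the sustentacular scaling and the block. Relative to the sustentacular markers, the ratio to controls of the share of counts turned to 0.900 for all enzymes, 0.888 for glutathione and 0.869 for glucuronide enzymes at 100%, and 0.967 for glucuronide enzymes at 1%, which with 1 model per locus was 0.988. When each mouse was left out that ratio at 1% was 0.820 to 1.33 for glucuronide and 0.660 to 1.06 for sulfate enzymes. The cause of these changes was not tested, beyond the fewer mice or models that some settings use. The correction for GC content, 1 model per locus, the fits with the P21 and P18 mice alone and no filter with the block were chosen after seeing the data. With 3 mice a group a share cannot reach a p below 0.1, and low genes near the floor of 3 counts have no measured fold.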
